A study of Mus musculus with 3 samples.

Results

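The receptors of the blood growth factors were described in 3 mouse acute myeloid leukemias that lack miR-196b. They are 9 genes, chosen by symbol as receptors of blood growth factors: Flt3, Kit, Csf1r, Csf2ra, Csf2rb, Csf2rb2, Csf3r, Il3ra and Epor. Each was found on 1 row of the deposited table, out of 28987 rows and 28074 gene symbols. All 3 mice belong to 1 group with the genotype miR-196b-/-, Dnmt3afl/fl, Flt3ITD/ITD, Mx1Cre. Mx1Cre places the Cre recombinase under the interferon-responsive Mx1 promoter, and Cre removes the floxed Dnmt3a sequence. The sample titles instead give the Dnmt3a genotype as +/-, and the labels do not settle which of these holds in the leukemic cells. The Flt3 internal tandem duplication (ITD) is labelled on both alleles. Leukemic spleen cells were taken from moribund mice, red blood cells were lysed, and cells carrying c-Kit, the protein product of Kit, were enriched with magnetic beads before RNA sequencing. No age, sex or batch is given in the labels used here. The study set these leukemias against miR-196b-intact leukemias of another series, which were not used here, so no difference between genotypes was tested. The mice are called 1, 2 and 3 in the order of their records, and each is a separate animal. The deletion of miR-196b could not be checked from these values. Myeloid progenitor transcripts were read from the granule enzyme gene Mpo and the progenitor gene Cd34, picked from 8 progenitor markers besides Kit and Flt3. Mpo stood at 1081, 864 and 1632 TPM (transcripts-per-million) in mice 1, 2 and 3, and Cd34 at 202, 141 and 137 TPM. Spink2, another of these markers, averaged 0.39 TPM. The neutrophil gene S100a8 stood at 1034, 2529 and 8646 TPM and the dendritic cell gene Clec9a at 184, 415 and 273 TPM. Mpo and Cd34 therefore do not give the identity of all the cells. With no other cells to compare, these values cannot check that the cells were leukemic.

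TPM measures transcript abundance per transcript length and is scaled to the same total in every library. Levels of different genes can therefore be compared within a mouse. TPM keeps no record of sequencing depth, so the depth of each library is unknown here, and the error given is the spread between mice (SD, n = 3). Differences between mice are given on the log2(TPM + 1) scale, and a ratio between mice is that of TPM + 1. A gene was called detected at a mean TPM of at least 1. That level was reached by 9 of the 9 receptors and by 15181 of 28074 symbols (54.1%). The columns of the table summed to between 927169 and 929731, and 14976 to 15108 genes a mouse had a TPM of at least 1.

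Growth factor receptors of blood cells fall into a pair of structural families. Flt3, Kit and Csf1r are class III receptor tyrosine kinases: the ligand brings receptor molecules together and the intracellular kinase then phosphorylates the receptor and its adaptors. The others are cytokine receptors that have no kinase of their own and work through bound JAK kinases and STAT transcription factors. Csf3r and Epor act as pairs of the same chain, whereas Csf2ra and Il3ra bind the ligand and signal through a shared beta chain. In the mouse that chain is encoded by Csf2rb, which serves GM-CSF, IL-3 and IL-5, and by its relative Csf2rb2, which serves IL-3. Flt3 and Kit mark immature progenitors, Csf1r monocytes and macrophages, Csf3r neutrophils and their precursors, and Epor erythroid progenitors. An ITD in Flt3 lengthens the juxtamembrane stretch, which normally restrains the kinase, and leaves the kinase active without ligand.

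Flt3 and Kit, the receptors of immature cells, were among the most abundant receptors in each leukemia. Flt3 stood at 146, 157 and 106 TPM in mice 1, 2 and 3, a mean of 137 ± 27.1 TPM (SD, n = 3). It was lowest in mouse 3, while mice 1 and 2 lay close together. The range between the highest and the lowest mouse was 0.57 log2 units, and the SD of 0.30 log2 units dropped to 0.07 without mouse 3. Kit, whose protein was the handle for enrichment, stood at 139, 149 and 133 TPM, a mean of 141 ± 8.10 TPM. Its SD of 0.08 log2 units exceeded that of only 11.2% of expressed genes. The part of the enrichment on c-Kit in this small spread was not tested. Kit was lowest in mouse 3 as deposited and lowest in mouse 1 after scaling each library to a common upper quartile.

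Within each mouse Kit and Flt3 were close in level. The ratio of Kit to Flt3 was 0.95 in mouse 1, 0.95 in mouse 2 and 1.26 in mouse 3, a mean of 1.05 ± 0.18 (SD, n = 3). The mean difference on the log2 scale, 0.06 ± 0.23, was smaller than its spread. In bulk RNA, fewer cells expressing a gene and less RNA per cell cannot be told apart, here and in the results that follow.

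The Flt3 gene lies on the minus strand of chromosome 5 at chr5:147330741-147400489 (GRCm38, the assembly also called mm10, GENCODE M21). Its coding transcript has 24 exons. Exon 14 encodes the juxtamembrane stretch in which leukemia ITDs lie, and its unduplicated reference sequence of 133 bases, chr5:147354799-147354931, is shown because the engineered lesion affects it. Capitals mark the 5 tyrosine codons in frame.
Flt3 exon 14: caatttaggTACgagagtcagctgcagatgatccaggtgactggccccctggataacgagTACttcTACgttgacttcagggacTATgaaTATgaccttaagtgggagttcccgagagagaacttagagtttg
The table gives 1 value a gene, so the Flt3 level cannot show whether its transcripts carry the duplication, which the labels place on both alleles. None of the Flt3 or Kit transcript sequence was shared with another gene over a stretch of 31 bases, the default word length with which kallisto assigns reads.

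Csf1r, the third class III kinase of the set and the receptor of macrophage colony-stimulating factor, was several times lower. It stood at 8.35, 15.6 and 24.8 TPM in mice 1, 2 and 3, a mean of 16.3 ± 8.26 TPM (SD, n = 3). The values of the 3 mice lay well apart, with mouse 3 highest and mouse 1 lowest, a ratio of 2.76. Its SD of 0.73 log2 units exceeded that of 96.4% of expressed genes and was 0.45 without mouse 1. Exons of Csf1r overlap Hmgxb3 on the opposite strand, and 16.8% of the 31-base words of its coding transcripts also occur in Hmgxb3. Hmgxb3 was not part of the set, and whether the authors' quantification used strand is not given in the sources used here, so the Csf1r level is uncertain to that extent. The remaining class III kinases, the platelet-derived growth factor receptors, differed from each other: Pdgfra was at most 0.019 TPM in any mouse. Pdgfrb stood at 17.3, 6.91 and 6.07 TPM, highest in mouse 1 and thus ordered the other way round from Csf1r.

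**Figure D1:**
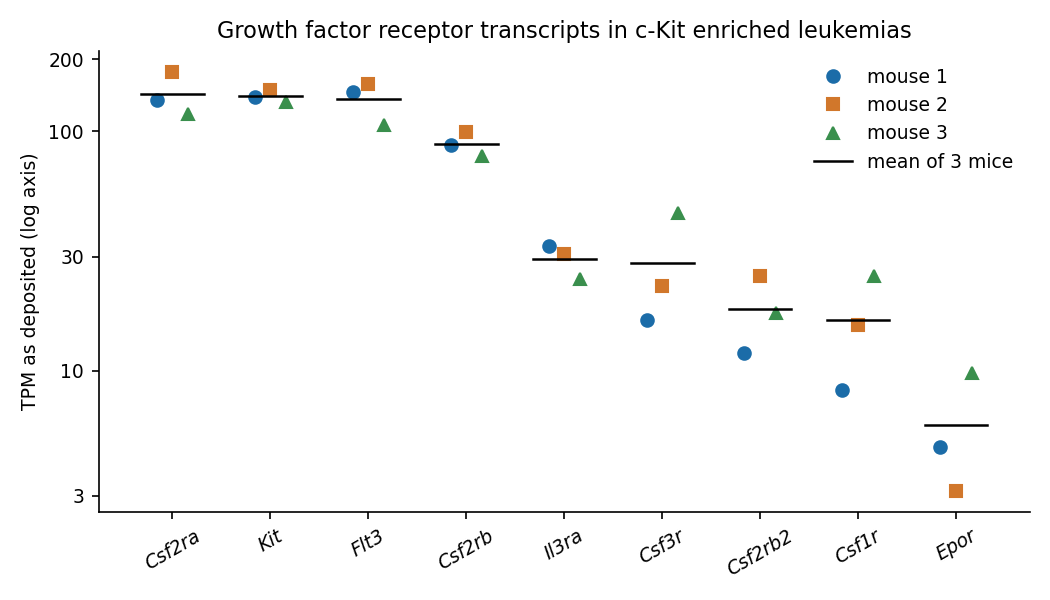
TPM as deposited (vertical log axis) of the 9 growth factor receptors in each of the 3 mice (coloured symbols), ordered by mean log2(TPM + 1), with the mean of the 3 mice as a black line. Csf2ra, Kit and Flt3 lie together at 106 to 178 TPM, and Epor is lowest at 3.15 to 9.83 TPM.

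Csf2ra, the ligand-binding chain of the GM-CSF receptor, was as abundant as Kit and Flt3. It stood at 135, 178 and 118 TPM in mice 1, 2 and 3, a mean of 144 ± 30.6 TPM (SD, n = 3). Mouse 2 was highest, and its SD of 0.30 log2 units dropped to 0.14 without mouse 2. Il3ra, the ligand-binding chain of the IL-3 receptor, stood at 33.1, 30.7 and 24.3 TPM, a mean of 29.4 ± 4.56 TPM. It was the only receptor of the 9 that was highest in mouse 1, and its SD of 0.22 log2 units dropped to 0.08 without mouse 3. The ratio of Csf2ra to Il3ra in the same mouse was 4.09, 5.80 and 4.87, so transcripts of the GM-CSF chain outnumbered those of the IL-3 chain in 3 of 3 mice. Il5ra, which binds IL-5 and uses the same beta chain, stood at 0.51, 1.22 and 0.66 TPM.

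Of the beta chains, Csf2rb carried most of the transcript. Csf2rb stood at 87.4, 99.5 and 79.0 TPM in mice 1, 2 and 3, a mean of 88.6 ± 10.3 TPM (SD, n = 3). Csf2rb2 stood at 11.9, 24.9 and 17.5 TPM, a mean of 18.1 ± 6.54 TPM, and did not overlap the range of Csf2rb. Csf2rb2 was highest in mouse 2 and lowest in mouse 1, a ratio of 2.01 on the TPM + 1 scale, which is just past 2. Its share of the summed beta chain transcript was 12.0%, 20.03% and 18.2%. The summed beta chains reached 99.3, 124 and 96.5 TPM, and Csf2ra stood at 1.34 ± 0.10 times this sum within a mouse.

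The genes of the beta chains are neighbours on chromosome 15 and resemble each other closely. In GENCODE M21, Csf2rb2 lies at chr15:78282507-78305721 on the minus strand and Csf2rb at chr15:78325752-78353847 on the plus strand, 20.03 kb apart. Over the 8 internal exons of equal length compared base by base, 997 of 1064 bases (93.7%) were identical. Exon 5 of each, a coding exon of 158 bases, is shown because it has both a variable and an identical stretch. Capitals mark the 13 bases that differ.
Csf2rb exon 5, chr15:78340444-78340601, plus strand: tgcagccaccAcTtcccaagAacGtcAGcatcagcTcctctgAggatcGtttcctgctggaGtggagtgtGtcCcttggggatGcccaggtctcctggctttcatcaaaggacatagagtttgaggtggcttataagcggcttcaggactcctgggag
Csf2rb2 exon 5, chr15:78292708-78292865, minus strand: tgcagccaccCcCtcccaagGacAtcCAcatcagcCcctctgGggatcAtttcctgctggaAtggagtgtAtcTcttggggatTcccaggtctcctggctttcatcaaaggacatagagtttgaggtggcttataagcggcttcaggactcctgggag
Of the 31-base words in the coding transcripts, 26.2% of those of Csf2rb also occur in Csf2rb2 and 29.0% of those of Csf2rb2 also occur in Csf2rb. Reads from the shared words cannot be given to either gene by themselves, so the split between the chains is less certain than their sum.

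Csf3r, the receptor of granulocyte colony-stimulating factor, stood at 16.3, 22.6 and 45.6 TPM in mice 1, 2 and 3, a mean of 28.2 ± 15.4 TPM (SD, n = 3). Mouse 3 stood apart from the others, with a ratio of 2.69 to mouse 1. The SD of 0.73 log2 units dropped to 0.32 without mouse 3. Csf3r and Csf1r kept the same order of mice, and the ratio of Csf3r to Csf1r within a mouse was 1.95, 1.45 and 1.84. Of the 31-base words of Csf3r, 21.0% also occur in AC105061.2, an annotated processed pseudogene on chromosome 19.

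Epor, the erythropoietin receptor, was the least abundant receptor of the set in each mouse. It stood at 4.82, 3.15 and 9.83 TPM in mice 1, 2 and 3, a mean of 5.93 ± 3.48 TPM (SD, n = 3). Mouse 3 was again highest, but here mouse 2 was lowest, with a ratio of 2.61 between them. The SD of 0.70 log2 units exceeded that of 95.9% of expressed genes and dropped to 0.34 without mouse 3.

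Ordered by mean log2(TPM + 1), the receptors ran from Csf2ra (7.16) through Kit (7.14), Flt3 (7.08), Csf2rb (6.48), Il3ra (4.91), Csf3r (4.74), Csf2rb2 (4.20) and Csf1r (3.99) to Epor (2.68). Neighbours were taken to differ beyond their spread where the difference had the same sign in 3 of 3 mice and a mean above its SD. This held for 3 of the 8 neighbouring pairs. Flt3 exceeded Csf2rb by 0.60 ± 0.17 log2 units, Csf2rb exceeded Il3ra by 1.57 ± 0.17, and Csf1r exceeded Epor by 1.31 ± 0.66. Neighbours among Csf2ra, Kit and Flt3 did not differ beyond their spread, nor did neighbours among Il3ra, Csf3r, Csf2rb2 and Csf1r. Receptors farther apart in the order can still differ: Csf3r was above Csf1r, and Il3ra above Csf2rb2, in 3 of 3 mice. Flt3, Kit, Csf2ra and Csf2rb together made up 87.2%, 85.8% and 78.1% of the summed TPM of the 9 receptors in mice 1, 2 and 3.

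The 9 receptors did not vary alike among the mice. A ratio of at least 2 in some pair of mice was found for 4 of 9 receptors, Csf1r, Csf2rb2, Csf3r and Epor, against 8.57% of the 15181 expressed genes. By pair, Csf2rb2 alone passed this ratio between mice 1 and 2 (4.64% of all genes), Csf1r and Csf3r between mice 1 and 3 (5.38%), and Epor alone between mice 2 and 3 (2.9%). After upper-quartile scaling the same 4 receptors passed, against 8.63% of expressed genes. Leaving out a mouse leaves only 1 of these pairs, so 1 receptor remained past the ratio without mouse 1, 2 without mouse 2 and 1 without mouse 3. The median SD of the receptors was 0.30 log2 units, against 0.21 over all expressed genes. Csf2ra, Kit, Flt3, Csf2rb and Il3ra each had a ratio of at most 1.498 between mice, lowest for Kit.

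Csf1r, Csf3r and Epor were highest in mouse 3, which holds for 3 of 9 receptors and for 20.3% of expressed genes. Each of them was also at least 2-fold above its lowest mouse, and 2.73% of all expressed genes both peaked in mouse 3 and passed this ratio. Kit, Flt3, Csf2ra, Csf2rb and Csf2rb2 were highest in mouse 2, which holds for 5 of 9 receptors and for 31.1% of expressed genes. Il3ra alone was highest in mouse 1, where 48.6% of expressed genes were highest. The mouse with the highest value was the same for 9 of 9 receptors after upper-quartile scaling, when the shares of expressed genes were 30.4% for mouse 3, 33.9% for mouse 2 and 35.6% for mouse 1. Flt3, Kit, Csf2ra, Csf2rb and Il3ra were lowest in mouse 3 (5 of 9, against 42.6% of expressed genes). After that scaling Kit was lowest in mouse 1, which left 4 of 9 against 30.5%. Lowest in mouse 1 were Csf1r, Csf3r and Csf2rb2 (3 of 9, against 24.4%), and after scaling also Kit (4 of 9, against 36%). Epor was lowest in mouse 2 (1 of 9, against 33%, and 33.5% after scaling). In mouse 3, then, Csf1r, Csf3r and Epor stood at the upper end and Flt3, Csf2ra, Csf2rb and Il3ra at the lower end, under both scalings. After scaling the rank of Csf2rb and Csf2ra rested on small gaps between mice 1 and 3. Csf2rb then stood at 82.8 and 82.6 in these mice and Csf2ra at 128 and 124, with mouse 2 higher for both.

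**Figure D2:**
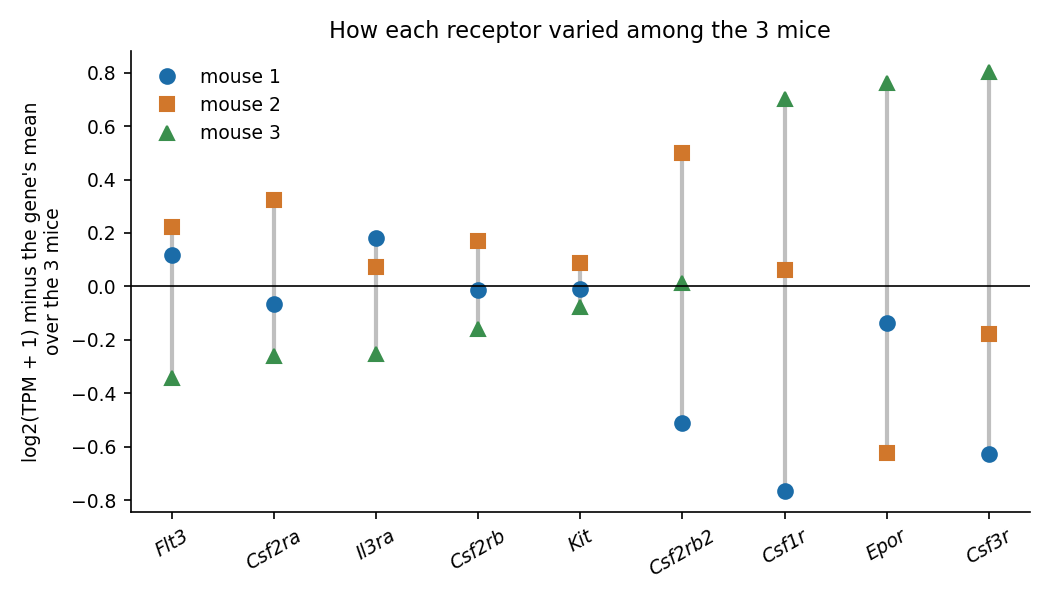
Difference between log2(TPM + 1) in each mouse (coloured symbols) and the gene's mean over the 3 mice (vertical axis, log2 units) for the 9 receptors, ordered by the value in mouse 3, with a grey bar from lowest to highest. Mouse 3 lies lowest for Flt3, Csf2ra, Il3ra, Csf2rb and Kit as deposited, and highest for Csf1r, Epor and Csf3r.

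**Figure D3:**
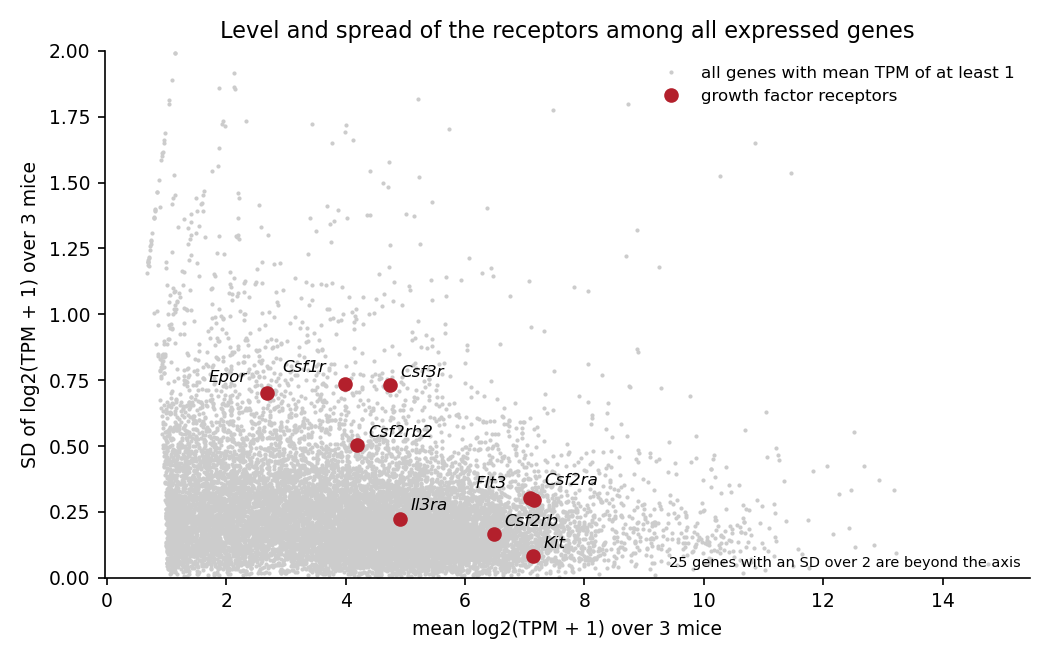
Mean (horizontal axis) and SD (vertical axis) of log2(TPM + 1) over the 3 mice for all expressed genes (grey points) and the 9 receptors (red points); 25 genes with an SD over 2 lie beyond the axis. Csf1r, Csf3r and Epor have SDs of 0.73, 0.73 and 0.70, and Kit has an SD of 0.08.

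Markers of mature cells moved among the mice beside these receptors. Over all expressed genes, 20.3% were highest in mouse 3, 24.4% lowest in mouse 1 and 33% lowest in mouse 2. Neutrophil markers summed to 2500, 6495 and 21525 TPM in mice 1, 2 and 3, and 9 of 10 were highest in mouse 3, as Csf3r was. Monocyte and macrophage markers summed to 505, 575 and 889 TPM, in the order of mice of Csf1r. Of their 6 detected genes, 4 were highest in mouse 3, 3 lowest in mouse 1 and 3 lowest in mouse 2. Most of the sum came from Ly6c2, at 291, 229 and 559 TPM, and Ccr2, at 150.4, 271 and 215 TPM, neither in the order of Csf1r. The macrophage marker C1qa stayed under 1 TPM in each mouse. Erythroid markers summed to 238, 183 and 335 TPM. The 7 of 7 detected erythroid genes were highest in mouse 3 and lowest in mouse 2, as Epor was, while the hemoglobin gene Hba-a1 did not exceed 1.26 TPM. Of the 10 erythroid genes chosen, Hbb-bs and Ahsp had no value and Hba-a1 was not detected by its mean. Among the 7, Alas2 and Tfrc had ratios between mice of only 1.17 and 1.46. Dendritic cell markers other than Flt3 summed to 330, 724 and 498 TPM, and 7 of 7 were lowest in mouse 1, where Flt3 was not lowest. In mouse 2, where Flt3 was highest, 5 of the 7 were highest, against 31.1% of expressed genes. After upper-quartile scaling it was again 5, against 33.9%. Clec9a, the most abundant of them, stood at 184, 415 and 273 TPM. None of the genes of these 4 lists was listed at 0 in all 3 mice. The part of such cells in the receptor levels was not tested. Progenitor markers other than Kit and Flt3 summed to 2031, 1488 and 2767 TPM, and 7 of 8 were detected. Most of that sum came from the granule enzyme genes Mpo, at 1081, 864 and 1632 TPM, and Elane, at 410, 271 and 736 TPM. Both were highest in mouse 3. Of the 7 detected, 5 were highest in mouse 1, against 48.6% of expressed genes. In mouse 2, where Flt3 and Kit were highest, 5 were lowest, against 33%. After upper-quartile scaling, 4 were highest in mouse 1 (35.6% of expressed genes) and 6 lowest in mouse 2 (33.5%).

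**Figure D4:**
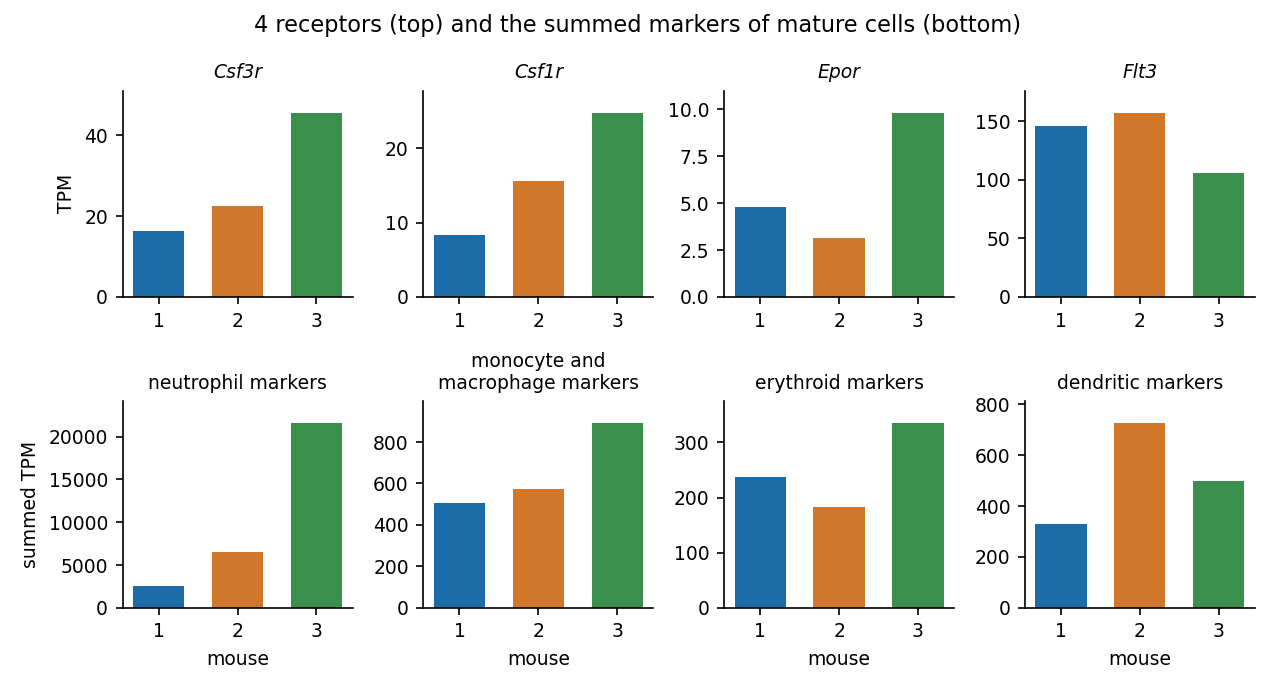
TPM of Csf3r, Csf1r, Epor and Flt3 in mice 1, 2 and 3 (upper bars) above the summed TPM of neutrophil, monocyte and macrophage, erythroid and dendritic cell markers in the same mice (lower bars); each bar is 1 sample and axes start at 0. Csf3r, Csf1r and Epor are highest in mouse 3 together with the markers below them, while Flt3 is lowest there. Flt3 and the summed dendritic cell markers are both highest in mouse 2, and those markers are lowest in mouse 1.

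Megakaryocyte markers summed to between 91.2 and 119 TPM, and mast cell and basophil markers to 103, 44.8 and 63.5 TPM in mice 1, 2 and 3. Of the latter, Cpa3 stood at 51.9, 14.6 and 13.2 TPM and Mcpt8 at 31.4, 12.5 and 17.3 TPM, both highest in mouse 1. Hdc, at 15.6, 13.9 and 27.99 TPM, was highest in mouse 3, and Tpsb2 was listed at 0 in each mouse. B cell markers summed to between 49.7 and 127 TPM, most of it Ighm, and T and NK cell markers to between 16.1 and 24.7 TPM. The sum of 12 housekeeping genes ran from 14673 to 20102 TPM.

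The start sites of receptor genes that took opposite ends in mouse 3 are shown as RefSeq gives them (GRCm38.p6, 250 bases before to 50 after the start). Csf2ra took the lower end by only a small gap to mouse 1 after upper-quartile scaling. Promoters of 7 of the 9 receptors were in the table used. Letters of 6 short motifs were searched on both strands: AGATAA for GATA factors, GAGGAA for the core bound by PU.1, CAGCTG for an E-box, TGACGTCA for a cyclic AMP response element, GGGCGG for a GC box and TTNNGCAA for C/EBP factors. The motifs were chosen after the sequences had been read, and capitals mark their matches. Of the printed matches, none overlaps that of another motif.
Epor, chr9:21963527-21963826, minus strand: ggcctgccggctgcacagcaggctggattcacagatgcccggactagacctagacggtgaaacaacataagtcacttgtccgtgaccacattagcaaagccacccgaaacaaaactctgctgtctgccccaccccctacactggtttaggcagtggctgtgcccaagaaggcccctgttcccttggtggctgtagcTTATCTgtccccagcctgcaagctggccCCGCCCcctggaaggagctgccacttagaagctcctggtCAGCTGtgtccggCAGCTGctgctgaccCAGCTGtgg
Csf3r, chr4:126024409-126024708, plus strand: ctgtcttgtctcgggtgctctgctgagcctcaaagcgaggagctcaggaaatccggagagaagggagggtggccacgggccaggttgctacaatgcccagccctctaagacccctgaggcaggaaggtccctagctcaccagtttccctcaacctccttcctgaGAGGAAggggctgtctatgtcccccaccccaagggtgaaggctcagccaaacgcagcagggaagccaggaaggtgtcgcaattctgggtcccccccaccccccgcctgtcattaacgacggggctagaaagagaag
Csf2ra, chr19:61228369-61228668, minus strand: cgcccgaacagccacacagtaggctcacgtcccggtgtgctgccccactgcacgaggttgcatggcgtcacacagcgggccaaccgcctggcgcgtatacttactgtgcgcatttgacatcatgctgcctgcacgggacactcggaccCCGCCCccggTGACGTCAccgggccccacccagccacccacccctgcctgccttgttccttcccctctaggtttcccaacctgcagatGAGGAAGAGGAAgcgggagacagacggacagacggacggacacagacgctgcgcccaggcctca
Flt3, chr5:147400440-147400739, minus strand: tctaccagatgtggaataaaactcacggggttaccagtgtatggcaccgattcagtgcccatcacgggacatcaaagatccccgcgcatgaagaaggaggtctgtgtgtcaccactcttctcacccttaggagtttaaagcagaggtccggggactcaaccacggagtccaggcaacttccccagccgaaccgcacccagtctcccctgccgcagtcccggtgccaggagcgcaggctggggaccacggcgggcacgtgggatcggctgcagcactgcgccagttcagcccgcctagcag
The Epor window held the GATA letters 54 bases before the start, a GC box, and 3 E-boxes after the start. The GATA letters are found in 11.2% of the 32851 promoter windows of this length, the GC box in 35.7% and the E-box in 16.3%. The Csf3r window held the PU.1 core, which is in 28.3% of windows. The Csf2ra window held 2 copies of the PU.1 core, a GC box and the cyclic AMP response element, the last of which is in 1.79% of windows. The Flt3 window held none of the 6, and C/EBP letters, present in 10.8% of windows, were in none of these 4. Il3ra, also at the lower end in mouse 3, is not printed for length; its window held the C/EBP letters 134 bases before the start and 7 matches of the GC box. A match describes letters only and says nothing of binding in these cells.

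Transcription factors known to act on such genes were measured in the same mice. Gata1 and Klf1, which drive erythroid genes, stood at 9.60, 7.62 and 19.5 TPM and at 9.41, 8.11 and 24.6 TPM, each with the order of mice of Epor, and Klf1 is also 1 of the erythroid markers above. Cebpe, needed for late granulocyte maturation, stood at 12.3, 19.3 and 55.8 TPM, with the order of mice of Csf3r. Cebpa, named after its values were seen, stood at 63.5, 43.7 and 37.2 TPM, the reverse of that order. By highest mouse, the 15 factors with a value split into 7 for mouse 1, 2 for mouse 2 and 6 for mouse 3. The shares of expressed genes were 48.6%, 31.1% and 20.3%. After upper-quartile scaling the split was 6, 2 and 7, against 35.6%, 33.9% and 30.4%. Gata2, a progenitor factor, stood at 44.3, 16.8 and 16.9 TPM and so was highest in mouse 1. Gfi1 stood at 33.4, 15.8 and 25.3 TPM, a ratio of 2.05 that dropped to 1.92 after upper-quartile scaling. Of the 15 such factors with a value, 5 differed by at least 2-fold between some pair of mice, against 8.57% of all genes, and Spi1, which encodes PU.1, was not analysed here. Irf8, a factor of monocytes and dendritic cells, was the most abundant at 716, 1256 and 775 TPM, followed by Lmo2 at 202 ± 16.4 TPM and Myb at 163 ± 35.4 TPM (SD, n = 3).

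Most ligands of the receptors were low in the enriched cells. Of 10 ligand genes, 3 were detected. Flt3l, the ligand of Flt3, was the highest at 17.6, 16.5 and 14.9 TPM, a mean of 16.3 ± 1.32 TPM (SD, n = 3). That is near the median of 17.5 TPM over all expressed genes. Csf2, which encodes GM-CSF, stood at 4.24 ± 0.63 TPM, and Csf1 at 4.13 ± 0.67 TPM. Kitl, the ligand of Kit, did not exceed 0.17 TPM and Csf3 did not exceed 0.27 TPM. Il34, the other ligand of Csf1r, stood at 0.84 ± 0.33 TPM. Il3, Epo and Thpo were listed at 0 in 3 of 3 mice. None of the 3 detected ligands differed by 2-fold between mice, against 8.57% of all genes.

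The listed kinases and transducers below the receptors that had a value were all detected by their mean. Hras, also on the adaptor list, had no value, and Src was at 0.64 TPM in mouse 1. Each of the 11 JAK and STAT genes was detected. Jak1 stood at 135 ± 5.38 TPM and Stat3 at 115 ± 17.7 TPM (SD, n = 3). Jak2, the kinase bound by Epor and by the beta chains, stood at 129, 153 and 98.4 TPM, with the order of mice of Flt3. Of the 24 adaptor, RAS, PI3K and SRC family genes with a value, 1 differed by at least 2-fold, against 8.57% of all genes: Fgr, a kinase of myeloid cells, at 6.59, 13.1 and 28.3 TPM, with the order of mice of Csf1r and Csf3r. The most abundant of these were Grb2 at 228 ± 18.1 TPM, Lyn at 221 ± 40.6 TPM and Pik3cd at 138 ± 10.7 TPM.

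Negative regulators of the receptors were led by Inpp5d at 404 ± 79.8 TPM, Sla at 220 ± 71.5 TPM and Ptpn6 at 194 ± 16.4 TPM (SD, n = 3). Inpp5d encodes the lipid phosphatase SHIP1 and Ptpn6 the tyrosine phosphatase SHP-1. Of 23 such genes, all detected, 4 differed by at least 2-fold between mice, against 8.57% of all genes. Cish, a feedback gene of STAT5, stood at 93.4, 48.6 and 32.03 TPM, Socs1 at 23.1, 12.8 and 9.36 TPM, and Dusp6, a feedback gene of ERK, at 19.4, 10.6 and 7.94 TPM. These genes were highest in mouse 1 and lowest in mouse 3, also after upper-quartile scaling. Socs3 stood at 11.0, 12.9 and 5.38 TPM and was lowest in mouse 3 as well. Of the 23 regulators, 16 were lowest in mouse 3 under both scalings, against 42.6% of all genes as deposited and 30.5% after scaling.

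**Figure D5:**
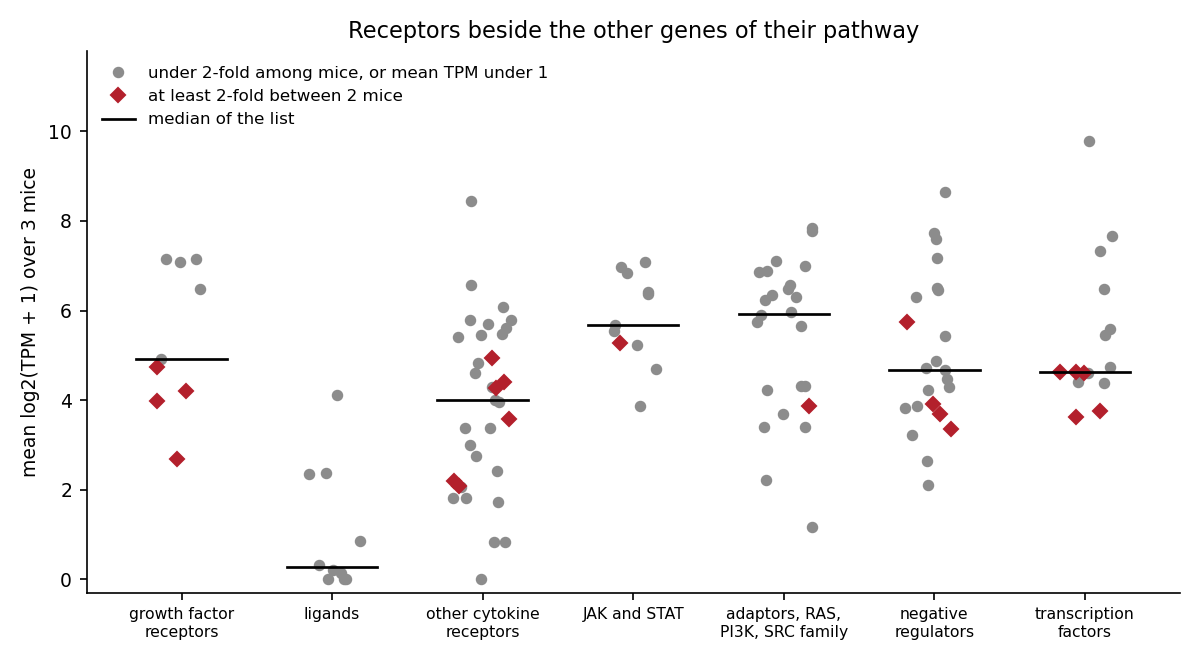
Mean log2(TPM + 1) over the 3 mice (vertical axis) of the receptors and of 6 lists of genes of their pathways (each point is 1 gene, spread sideways for legibility), with the list median as a black line and genes that differed by at least 2-fold between some pair of mice as red diamonds. The receptors have a median of 4.91 and 4 red points, and the ligands have a median of 0.27 and none.

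Genes outside the set whose pattern over the 3 mice was most like that of Flt3 or Kit were sought among genes averaging at least 10 TPM, by the Euclidean distance between profiles of log2(TPM + 1) centred on their mean. For Flt3 these were Fbxl12 at 16.2, 17.4 and 11.4 TPM, Rab34 and Osbpl3, with distances of 0.0045, 0.0099 and 0.0145 log2 units. For Kit they were Sh3bgrl at 132, 141 and 126 TPM, Cutc and Fam13b, with distances of 0.0016, 0.0039 and 0.0041. With 3 mice many genes share any given pattern, so these names are a description. Among the receptors themselves, Kit and Csf2rb were the closest pair, at a distance of 0.12, and Flt3 and Csf3r the farthest, at 1.42.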

How the data were processed

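RNA of c-Kit enriched spleen cells of 3 leukemic mice (1 group) was measured. Per the submitters' processing notes kallisto and mm10 were used; annotation and filters are not given in the sources used here. The authors' file name says log2 FPKM, but the deposited values are linear, and their column sums, 92.7% to 93.0% of the total to which TPM is scaled, are those of TPM. The 3 other per-sample columns, from another series, were not used. Rows without a symbol (795, carrying 0.53% to 0.61% of TPM) or with a date as symbol (27) were left out, and 90 symbols on several rows were summed.

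Levels are mean and SD over mice, as TPM and as log2(TPM + 1); spread and 2-fold calls use the detected genes (mean of 1 TPM or more). With 1 group there is no test. Members and gene lists were chosen with earlier results of these data known. Named genes are the 9 receptors, in each pathway list the 3 most abundant genes and up to 6 with a 2-fold range and a mean TPM of at least 5, ligands and partner receptors, and the 3 nearest profiles to Flt3 and to Kit. Stat5 genes were not named by this rule. The markers of the cell types were chosen for naming after their values were seen. Promoter windows are RefSeq's; exons and shared words of 31 bases come from GENCODE M21. On simulated data for mouse 1 against mouse 3 (15181 genes, 200 changed), 99.5% of 3-fold and 0% of 1.5-fold changes passed the 2-fold call. The simulated noise had an SD of 0.1 log2 units, below the median SD of 0.21 over expressed genes. These shares therefore check the code and do not give the error of the call in these data. Alternatives were a pseudocount of 0.1, upper-quartile scaling, other thresholds and each mouse left out. Python 3.11.15, numpy 2.4.6, pandas 2.3.3 and matplotlib 3.10.9 were used. A few genes that the naming rule or the lists would bring in are not reported here. Labels name both ribosomal RNA depletion and an mRNA kit.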

Additional observations from a re-analysis of the deposited data

How the results depend on the processing

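No paired analysis was possible because the 3 mice form 1 group. None of 45 recomputed receptor levels or 15 recomputed ratios between receptors moved by as much as 1 SD over the mice. Leaving out 1 of 3 mice cannot move a mean that far, so the ratios and the levels without a mouse are no check. Upper-quartile scaling is centred over the 3 libraries and also hardly moves a mean. With a pseudocount of 0.1 the largest move was that of Epor, from 2.68 to 2.44 on the log2 scale. By their mean, 9 of 9 receptors were detected at thresholds of 0.1, 1 and 5 TPM. Epor was under 5 TPM in mice 1 and 2, at 4.82 and 3.15 TPM. Leaving out a mouse gave between 1 and 2 receptors past a 2-fold ratio, against 4 with all mice, because fewer pairs of mice remain; it gave between 4 and 6 neighbouring pairs that differed beyond their spread, against 3, and a median SD of the receptors between 0.28 and 0.40 log2 units. The ranges without a mouse were, on the log2(TPM + 1) scale, 6.97 to 7.26 for Flt3, 7.10 to 7.18 for Kit, 3.64 to 4.37 for Csf1r, 6.996 to 7.29 for Csf2ra, 6.39 to 6.56 for Csf2rb, 3.95 to 4.45 for Csf2rb2, 4.34 to 5.05 for Csf3r, 4.82 to 5.04 for Il3ra and 2.30 to 2.99 for Epor. Upper-quartile scaling, which shifts libraries by -0.08 (mouse 1) to 0.06 (mouse 3) on the log2 scale, a pseudocount of 0.1 and a ratio of at least 1.5 each gave 4 receptors differing between mice. Of all expressed genes, 8.57% differed at a ratio of 2, 13.1% with a pseudocount of 0.1 and 27.2% at a ratio of 1.5. TPM keeps no depth, so the counting error of low genes such as Epor is unknown.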

Other observations

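Of 33 other cytokine receptor genes, 30 were detected and 6 differed by at least 2-fold between some pair of mice, against 8.57% of all expressed genes. Of the 30, 16 were highest in mouse 1 and 13 lowest in mouse 3 as deposited, near the shares over all expressed genes, 48.6% and 42.6%. After upper-quartile scaling 15 were highest in mouse 1 and 12 lowest in mouse 3, above the shares of 35.6% and 30.5%. Lifr, the receptor of leukemia inhibitory factor, stood at 57.9, 17.1 and 7.94 TPM in mice 1, 2 and 3, a ratio of 6.59 on the TPM + 1 scale. Il1r1, the IL-1 receptor, stood at 24.6, 8.32 and 6.29 TPM, Il2ra, the alpha chain of the IL-2 receptor, at 35.5, 16.2 and 10.4 TPM, and Il18r1 at 52.5, 26.4 and 18.4 TPM. All 4 were highest in mouse 1 and lowest in mouse 3, as Pdgfrb and the feedback genes Cish, Socs1 and Dusp6 were. The order was the same after upper-quartile scaling, where the ratio of Il18r1 was 2.50. Of the other 2 genes past 2-fold, named after their values were seen, Lepr was lowest in mouse 1, at 1.49, 4.82 and 4.23 TPM, and Il12rb1, averaging 3.77 TPM, had a ratio of 1.86 after that scaling.

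The most abundant of these receptors were Ifngr1, a chain of the interferon gamma receptor, at 256, 496 and 328 TPM, Ifnar2 at 94.3 ± 8.34 TPM and Il2rg, the chain shared by several interleukin receptors, at 67.8 ± 14.7 TPM (SD, n = 3). Ifngr1 was above each of the 9 growth factor receptors in 3 of 3 mice. No comparison of genotypes was possible, and no hypothesis was tested.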
